A study of Mus musculus with 16 samples.

Results

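The Hox genes, homeobox transcription factor genes that lie in 4 clusters, were read across epithelium, myofibroblasts and adenoma cells of the mouse small intestine. Members were taken as the genes named Hoxa, Hoxb, Hoxc or Hoxd followed by a number, each read from its brightest probe set with a single gene symbol. Such a probe set was found for 36 Hox genes, out of 22180 genes on the array, and 34 of them were bright enough to test, out of 18095. Hoxc11 and Hoxd1 were dim in all 5 groups and were not tested. Hoxa11 and Hoxd4 had only probe sets shared with a neighbour and are not members here.

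Hox proteins tell cells of the embryo where they lie between head and tail. Within a cluster the genes stand in the order of their paralogue numbers, low numbers are used towards the head and high numbers towards the tail, and genes with the same number in different clusters are related by descent. Their products bind DNA together with partner proteins of the TALE class, named Pbx, Meis and Pknox, and in the gut they pattern mostly the mesenchyme, while caudal proteins (Cdx1 and Cdx2) mark the intestinal epithelium. Polycomb proteins keep Hox genes silent and trithorax proteins keep them active. HoxA lies on mouse chromosome 6, HoxB on 11, HoxC on 15 and HoxD on 2.

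The 14 biological samples came from 9 C57Bl/6 mice of 8 to 10 weeks that the labels give as male. Organoids, that is wild-type crypt epithelium growing in Matrigel, came from animals P28 and P30, once kept alone (n = 2) and once kept for 24 h below an insert with wild-type myofibroblasts (n = 2). Wild-type intestinal myofibroblasts were profiled alone (n = 3, animals Pl_I, Pl_II and Pl_III) and after culture with organoids across pores of 0.4 µm (n = 3, the same animals), so the cell types shared medium without touching. The labels call the myofibroblast samples organoids as well and do not describe how they were harvested. The last group was adenoma cells from 4 mice with the genotype Apc+/1638N (animals P21, P23, P34 and P36), in which one copy of Apc, a brake on Wnt signalling, is mutated in the germ line. The labels leave unclear whether several adenomas of a mouse were pooled, and they name no stretch of the small intestine for any sample. Samples of a group come from different animals, and p-values measure the spread between them. The 2 cultures of an animal entered the main fit as separate samples, without pairing.

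Values are log2 levels after RMA, and differences are log2 differences ± SE from limma, adjusted over 18095 genes by the Benjamini-Hochberg method and called at an adjusted p under 0.05. A level of 2.67, the 30th percentile over probe sets, served as the dim level. RMA compresses low values, so differences measured against a group near the dim level may be understated. Array medians lay between 3.48 and 3.58. The mean of 12 epithelial markers ran from 11.24 to 11.71 in organoids, from 9.95 to 10.92 in adenoma and from 3.19 to 3.69 in myofibroblasts. The mean of 12 fibroblast and myofibroblast markers ran from 10.96 to 11.24 in myofibroblasts and from 3.20 to 3.71 elsewhere. The myofibroblast cultures also carried 10 of 10 immune cell markers above the median probe set level (means 8.62 to 9.14, against 3.95 to 4.27 in the other groups), and 4 of 4 smooth muscle markers (means 8.65 to 9.68). Endothelial markers (means 2.96 to 3.65) and enteric glial and neuronal markers (2.90 to 3.20) were low in every group. Both cultures of P28 and of Pl_III had Xist between 7.57 and 8.29 and Eif2s3y between 2.53 and 3.20, which goes against the labelled sex, while in the other samples Xist was at most 2.81 and Eif2s3y at least 7.37. Where a sample is a mixture, fewer cells of a type and less RNA per cell cannot be told apart.

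Promoter sequences from RefSeq (build GRCm38.p6) were matched for 20 of the 36 members, in 22 windows of 300 bases. Their median GC content was 58.7%, against 52.7% over 32851 mouse promoters, and their median ratio of observed to expected CpG was 0.63 against 0.38. The windows were searched on both strands for TGATTNAT, a site of Hox and Pbx proteins together, for TGACAG, a Meis site, and for TTTATG, a caudal site. They were found in 2, 2 and 4 of the 22 Hox windows, and in 3.2%, 19.2% and 11.9% of all promoters. The 250 bases before the start are shown for 5 members on which the results turn, with motif matches in capitals. Hoxb8 and Hoxc4 were high in myofibroblasts, Hoxd8 and Hoxd9 are the HoxD genes called higher there in at least 1 culture, and Hoxa2 was lower in adenoma. A match is a stretch of letters and not a measured binding site. The windows are chr11:96281655-96281904 (plus strand) for Hoxb8, chr15:103034145-103034394 (plus) for Hoxc4, chr2:74704365-74704614 (plus) for Hoxd8, chr2:74697513-74697762 (plus) for Hoxd9 and chr6:52164832-52165081 (minus) for Hoxa2.
Hoxb8: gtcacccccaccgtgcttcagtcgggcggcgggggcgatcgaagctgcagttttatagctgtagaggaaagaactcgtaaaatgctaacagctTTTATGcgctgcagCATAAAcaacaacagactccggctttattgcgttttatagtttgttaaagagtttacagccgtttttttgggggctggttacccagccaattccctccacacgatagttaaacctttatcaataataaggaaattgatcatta
Hoxc4: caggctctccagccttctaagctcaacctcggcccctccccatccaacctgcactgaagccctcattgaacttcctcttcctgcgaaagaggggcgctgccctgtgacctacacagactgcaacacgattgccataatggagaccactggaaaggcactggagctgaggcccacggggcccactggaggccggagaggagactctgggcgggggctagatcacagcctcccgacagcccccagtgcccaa
Hoxd8: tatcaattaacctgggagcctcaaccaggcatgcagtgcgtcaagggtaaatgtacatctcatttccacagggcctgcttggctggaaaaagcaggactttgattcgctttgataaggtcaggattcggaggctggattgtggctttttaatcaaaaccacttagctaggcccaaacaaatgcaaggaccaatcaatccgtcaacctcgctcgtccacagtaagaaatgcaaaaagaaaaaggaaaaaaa
Hoxd9: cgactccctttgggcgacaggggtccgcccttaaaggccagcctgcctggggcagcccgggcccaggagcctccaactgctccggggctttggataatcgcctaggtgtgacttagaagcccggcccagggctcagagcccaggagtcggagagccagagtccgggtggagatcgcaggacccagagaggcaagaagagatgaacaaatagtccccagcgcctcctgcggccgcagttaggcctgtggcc
Hoxa2: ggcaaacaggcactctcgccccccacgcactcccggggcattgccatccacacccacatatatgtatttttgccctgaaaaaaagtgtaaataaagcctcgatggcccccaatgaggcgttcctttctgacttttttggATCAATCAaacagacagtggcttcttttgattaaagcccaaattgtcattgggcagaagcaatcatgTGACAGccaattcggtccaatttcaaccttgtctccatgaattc
The Hoxb8 window holds the caudal motif once on each strand. The Hoxa2 window holds a Hox and Pbx motif on the strand opposite to the one printed, followed by a Meis motif, and no matches overlap. The Hoxc4, Hoxd8 and Hoxd9 windows hold none of the 3 motifs, and their GC content was 62.0%, 44.4% and 65.2%.

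**Figure D1:**
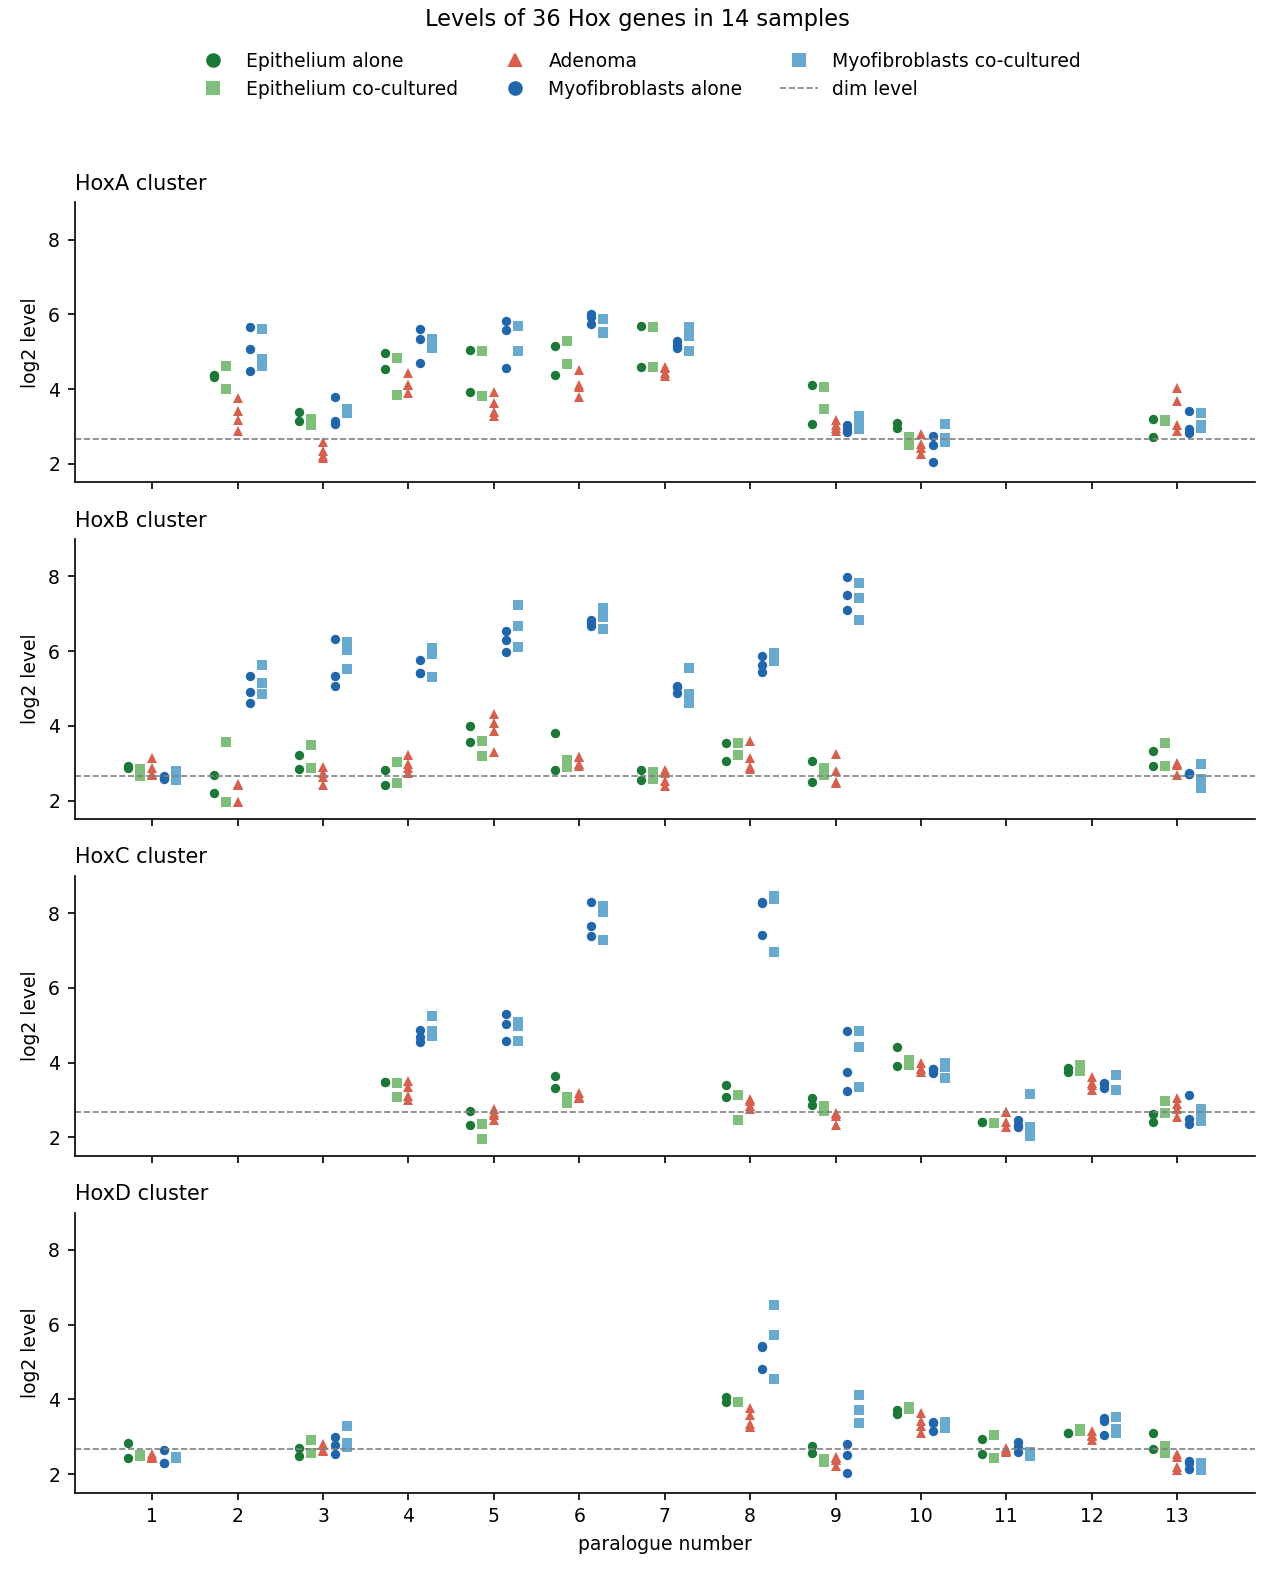
Log2 level of each of the 36 Hox genes in each of the 14 samples, by cluster and paralogue number; the symbols mark the 5 groups and the dashed line the dim level of 2.67. Myofibroblast samples stand apart from the rest at Hoxb2 to Hoxb9 and at Hoxc4 to Hoxc8, and Hoxd8 does so to a lesser extent.

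The first comparison set myofibroblasts against epithelium, both grown alone. Of the 34 tested Hox genes 14 were higher in myofibroblasts, where 26.5% of all tested genes were, and 3 were lower, where 24.2% of all were. The median difference was 0.59 over the Hox genes and -0.02 over all genes. The clusters took unequal shares of this. In HoxB 8 of 10 genes rose (median difference 2.50), in HoxC 4 of 8 (1.11), in HoxD 1 of 7 (-0.02) and in HoxA 1 of 9 (0.11). By paralogue number, 12 of 18 tested genes numbered 4 to 9 rose, as did 2 of 6 numbered 1 to 3, and none of the 10 numbered 10 to 13, of which 3 fell. Over all tested genes 26.5% rose and 24.2% fell, so the 2 of 6 and the 3 of 10 lie near those shares. Over all alternatives the number that rose lay between 12 and 15.

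Hoxc8, which shapes the trunk skeleton and its motor neurons, read 8.27, 8.30 and 7.41 in Pl_I, Pl_II and Pl_III against 3.39 and 3.08 in P28 and P30. In co-culture it read 8.38, 8.47 and 6.95 against 2.47 and 3.14. The lowest myofibroblast sample therefore lay far above the highest epithelial sample, and Pl_III was the lowest of the 3 myofibroblast animals in both cultures. The difference was 4.76 ± 0.41 alone (27.1-fold, limma adjusted p = 1.135e-06) and 5.12 ± 0.41 in co-culture (34.9-fold, limma adjusted p = 6.694e-07).

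Hoxb9, the last HoxB gene before Hoxb13, read 7.10, 7.99 and 7.49 in myofibroblasts alone and 3.05 and 2.51 in epithelium alone. The groups did not overlap, and epithelium stood near the dim level. The difference was 4.75 ± 0.33 (26.9-fold, limma adjusted p = 1.573e-07). In co-culture the samples read 6.83, 7.82 and 7.41 against 2.87 and 2.68, a difference of 4.58 ± 0.33 (limma adjusted p = 2.516e-07). Pl_II was the highest and Pl_I the lowest animal in both cultures.

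Hoxc6, a gene of the thoracic region, read 8.29, 7.67 and 7.40 in myofibroblasts alone, against 3.33 and 3.65 in epithelium. In co-culture it read 8.03, 8.18 and 7.29 against 3.07 and 2.93. Again no epithelial sample came near any myofibroblast sample. The difference was 4.30 ± 0.27 alone (19.7-fold, limma adjusted p = 7.083e-08) and 4.84 ± 0.27 in co-culture (28.6-fold, limma adjusted p = 2.776e-08).

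Hoxb6 was the most even of these genes among myofibroblast animals, at 6.76, 6.83 and 6.67 alone and 6.58, 7.16 and 6.92 in co-culture. Epithelium read 2.82 and 3.82 alone and 3.09 and 2.89 in co-culture, and P30 alone was the highest epithelial sample. The difference was 3.44 ± 0.25 alone (10.8-fold, limma adjusted p = 2.146e-07) and 3.90 ± 0.25 in co-culture (limma adjusted p = 8.017e-08).

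The rest of HoxB rose as a run. Hoxb2, Hoxb3, Hoxb4, Hoxb5, Hoxb7 and Hoxb8 differed by 2.31 to 2.91 alone and by 2.33 to 3.28 in co-culture. For each of these 6 genes every myofibroblast sample lay above every epithelial and adenoma sample. How many of all tested genes separate in this way was not counted. Hoxb4, which is also known from blood stem cells, read 5.41, 5.42 and 5.75 in myofibroblasts alone against 2.81 and 2.41 in epithelium, a difference of 2.91 ± 0.25. The 2 ends of the cluster did not rise. Hoxb1, a hindbrain gene, averaged 2.62 ± 0.04 (SD, n = 3) in myofibroblasts and 2.89 ± 0.03 (SD, n = 2) in epithelium alone. Hoxb13, which belongs to the tail end and the hindgut, averaged 2.71 ± 0.01 (SD, n = 3) and 3.13 ± 0.28 (SD, n = 2). Immune cells express some HoxA and HoxB genes, and the part of the immune markers in these levels was not tested.

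In HoxC the called genes were Hoxc4, Hoxc5, Hoxc6 and Hoxc8. Hoxc4 differed by 1.22 ± 0.20 and Hoxc5 by 2.46 ± 0.23, both called. Hoxc5 was bright enough to test only through the myofibroblast groups, and its call held with no filter on dim genes. Hoxc9 read 4.86, 3.75 and 3.25 in myofibroblasts alone, against 2.86 and 3.06 in epithelium. Every myofibroblast sample was above the epithelium, but Pl_III was barely so, and the difference of 1.00 ± 0.44 missed the threshold (limma adjusted p = 0.08075). In co-culture Hoxc9 read 4.86, 4.43 and 3.36 against 2.71 and 2.83, and the difference of 1.44 ± 0.44 passed (limma adjusted p = 0.01861). That call was lost without either co-cultured epithelial sample or without Pl_I or Pl_II in co-culture (limma adjusted p between 0.0546 and 0.09511), and the difference between the 2 cultures was not called (limma adjusted p = 0.8653).

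Hoxd8 was the HoxD gene that was higher in myofibroblasts in both cultures. It read 5.42, 5.40 and 4.82 against 3.92 and 4.07 alone, and 5.73, 6.54 and 4.54 against 3.93 and 3.93 in co-culture. The groups did not overlap, and Pl_III was the lowest myofibroblast sample in both. The difference was 1.22 ± 0.43 (limma adjusted p = 0.03103) and 1.67 ± 0.43 (limma adjusted p = 0.006566). The call alone was lost without P28 (adjusted p = 0.1325), P30 (0.08863), Pl_I (0.08018) or Pl_II (0.07927) in monoculture, and the call in co-culture was lost with only the compared groups in the fit (adjusted p = 0.0587).

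In HoxA all 7 measured genes from Hoxa2 to Hoxa9 stood above the dim level in every epithelial sample as well. Hoxa6 read 4.37 and 5.15 in epithelium alone and 5.93, 5.75 and 6.00 in myofibroblasts alone, a difference of 1.14 ± 0.27 (limma adjusted p = 0.003495). The groups did not overlap, but without P28 in monoculture the difference was 0.75 and was not called (limma adjusted p = 0.06517). Hoxa4 was called in co-culture only, at 0.92 ± 0.31 (limma adjusted p = 0.02916), and that call was lost without P28 (0.42, adjusted p = 0.3674), without Pl_II (adjusted p = 0.07106) or without Pl_III (adjusted p = 0.06551) in co-culture. The difference between the 2 cultures was not called for Hoxa4 (limma adjusted p = 0.7655) or Hoxa6 (limma adjusted p = 0.6867). Hoxa7 read 4.58 and 5.70 in epithelium alone and 5.30, 5.11 and 5.19 in myofibroblasts alone, so the epithelial samples lay on either side of the myofibroblasts. Its difference was 0.06, with a 95% interval from -0.67 to 0.79. Hoxa2, Hoxa3 and Hoxa5 were not called. For Hoxa2 all myofibroblast samples lay above the epithelium within each culture, though by as little as 4.48 against 4.39 alone and 4.63 against 4.62 in co-culture. Hoxa3 and Hoxa5 overlapped between the cell types in monoculture. Hoxa9 was lower in myofibroblasts by -0.65 ± 0.26, which missed the threshold (limma adjusted p = 0.06033).

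**Figure D2:**
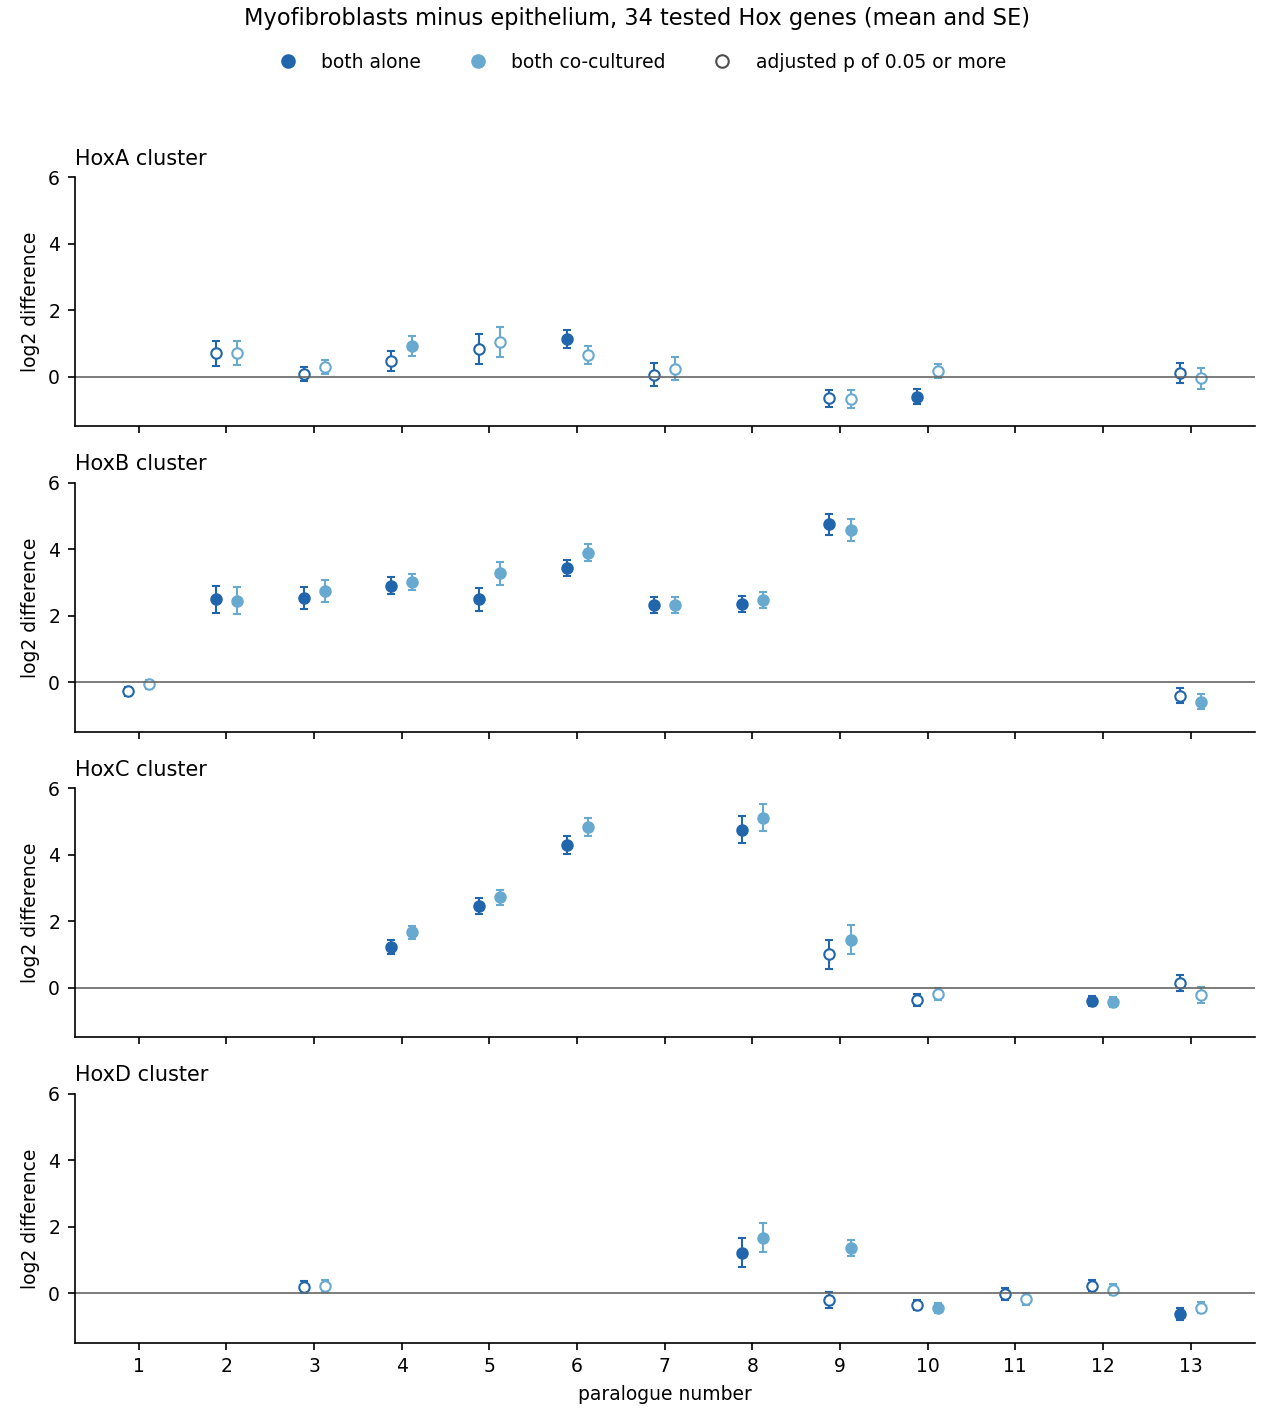
Difference in log2 level between myofibroblasts and epithelium for the 34 tested Hox genes, by cluster and paralogue number, with both grown alone (dark) and both co-cultured (light); bars are SE and open circles mark an adjusted p of 0.05 or more. Hoxb2 to Hoxb9 lie between 2.31 and 4.75 alone, and the HoxC differences reach 4.76 at Hoxc8.

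With both cell types co-cultured, 16 of 34 Hox genes were higher in myofibroblasts (23.9% of all genes were) and 3 were lower (21.2% of all). The median difference was 0.82, against -0.01 over all genes. The counts that rose were 8 of 10 in HoxB, 5 of 8 in HoxC, 2 of 7 in HoxD and 1 of 9 in HoxA. Both comparisons use different samples of the same 5 animals, so they are not independent of each other.

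The genes called lower in myofibroblasts had paralogue numbers of 10 to 13, and their differences were small. They were 3 of the 10 tested genes with these numbers in each comparison. That lies near the share of all genes called lower, 24.2% alone and 21.2% in co-culture. Alone the 3 lower genes were Hoxd13 (-0.63 ± 0.17), Hoxa10 (-0.60 ± 0.22) and Hoxc12 (-0.41 ± 0.15). Hoxd13, a gene of the digits and the genital and anal region, read 2.35, 2.14 and 2.29 against 2.67 and 3.11 in epithelium. It was bright enough to test only through epithelium alone (mean 2.89), where the other groups averaged 2.66 or less. With no filter on dim genes its call held. All 3 myofibroblast values were under the dim level and P28 stood at it, and without P30 the difference of -0.41 was not called (limma adjusted p = 0.1213). In co-culture the 3 were Hoxb13 (-0.59 ± 0.22), Hoxc12 (-0.44 ± 0.15) and Hoxd10 (-0.44 ± 0.15). Leaving out single samples took the count of lower genes from 3 to between 0 and 4 alone, and to between 0 and 5 in co-culture. Alone it was 0 without P30 and 1 without Pl_I or Pl_II. In co-culture it was 0 without P30 or Pl_II and 1 without Pl_I, and it was 5 without either epithelial monoculture.

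The partners and regulators of Hox genes were read from fixed lists. Of 8 tested TALE cofactors 5 were higher in myofibroblasts alone (26.5% of all genes were) and none was lower (24.2% of all). Meis1 read 8.45, 8.27 and 8.31 in myofibroblasts against 3.23 and 3.43 in epithelium, a difference of 5.01 ± 0.21. Meis2 differed by 3.49 ± 0.34, Pbx3 by 3.01 ± 0.21 and Meis3 by 2.59 ± 0.24. Of 6 ParaHox and caudal genes 3 were lower (24.2% of all genes) and none higher (26.5% of all). Cdx2, which sets intestinal identity, read 3.45, 3.66 and 3.69 against 9.49 and 9.29, a difference of -5.79 ± 0.46, and Cdx1 differed by -5.31 ± 0.25. Pdx1, a gene of the duodenum and pancreas, differed by -1.94 ± 0.64, but its epithelial samples lay far apart, at 3.94 in P28 and 6.02 in P30, against 2.90 to 3.19 in myofibroblasts.

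Of 18 Polycomb genes 7 were higher in myofibroblasts and 4 lower, where 26.5% and 24.2% of all genes were. Those with the smallest p were Cbx7 (-2.14 ± 0.26), Rnf2 (1.31 ± 0.17), Phc2 (1.07 ± 0.15) and Phc3 (0.79 ± 0.12). Of 11 trithorax and demethylase genes 2 were higher and 6 lower, and Kmt2a, a methyltransferase that keeps Hox genes active, differed by 0.88 ± 0.16. Retinoic acid switches on Hox genes in the embryo. Of 13 of its receptors and turnover enzymes 3 were higher and 4 lower, with the receptor gene Rarb at 3.66 ± 0.33 and Aldh1a1, which makes retinoic acid, at -5.94 ± 0.72. Of 13 other homeobox, forkhead and related genes of gut mesenchyme 5 were higher, among them Foxf1 (6.40 ± 0.31), Hand2 (4.93 ± 0.19), Nkx2-3 (4.73 ± 0.25) and Foxf2 (4.11 ± 0.59).

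Of 9 tested genes beside the clusters, Lnpk rose by 0.62 ± 0.17 and Smug1 fell by 0.81 ± 0.21, and the other 7 were not called. Of 14 non-coding and antisense genes listed, 6 had a probe set and 4 were tested, of which 0 were called by limma. Among them Hotair, a non-coding RNA of the HoxC cluster, differed by -0.09 ± 0.17 and Mir196a-1 by 0.44 ± 0.42. Whether these probe sets report the mature small RNAs is not known.

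The next comparisons set adenoma cells against each epithelial culture. No Hox gene was higher in adenoma than in epithelium alone by limma (22.5% of all genes were, and 0 Hox genes reached an unadjusted p under 0.05 in that direction), and 4 were lower (18.5% of all). Against co-cultured epithelium 0 were higher by limma (19.0% of all genes, again with 0 Hox genes at an unadjusted p under 0.05) and 5 were lower (14.3% of all). The medians were -0.29 against -0.03 over all genes, and -0.15 against 0.01. HoxA held 2 of the 4 lower genes and 4 of the 5. Both comparisons share the adenoma samples.

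Hoxa3, a gene of the pharynx and its glands, read 2.58, 2.21, 2.15 and 2.35 in adenoma animals P21, P23, P34 and P36. Epithelium read 3.14 and 3.38 alone and 3.19 and 3.05 in co-culture. All 4 adenoma samples lay below the dim level and all 4 epithelial samples above it. A brighter probe set shared by Hoxa3 and 5730446D14Rik read 4.01, 3.76, 3.04 and 3.26 in adenoma against 3.75 to 4.17 in epithelium, so that P21 and P23 overlapped there. The difference was -0.94 ± 0.19 against epithelium alone (limma adjusted p = 0.001907) and -0.80 ± 0.19 against co-culture (limma adjusted p = 0.0072). The second call was lost without co-cultured P28 (adjusted p = 0.07393).

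Hoxa2, a gene of the hindbrain and of the skeleton of the face and ear, read 2.89, 3.76, 3.18 and 3.41 in adenoma. Epithelium read 4.33 and 4.39 alone and 4.62 and 3.99 in co-culture. Each adenoma sample was below each epithelial sample. The difference was -1.05 ± 0.35 (limma adjusted p = 0.03163) and -0.99 ± 0.35 (limma adjusted p = 0.04807). Both calls sat close to the threshold. The first was lost without P28, P30, P21 or P34 (limma adjusted p between 0.06267 and 0.132), and the second was lost in 15 of 29 alternatives, among them without co-cultured P28 (-0.68, adjusted p = 0.35).

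Hoxa6 and Hoxa9 were called lower against co-cultured epithelium, by -0.87 ± 0.25 (limma adjusted p = 0.0193) and -0.75 ± 0.25 (limma adjusted p = 0.03729). Hoxa6 read 4.05, 3.79, 4.10 and 4.52 in adenoma against 4.68 and 5.29, and Hoxa9 read 3.17, 3.04, 2.89 and 2.95 against 3.47 and 4.06. P30 was the higher epithelial sample for both, and P28 came closer to adenoma. Without co-cultured P30 the differences were -0.57 (adjusted p = 0.2315) and -0.46 (adjusted p = 0.348). The Hoxa9 call was lost without P23, P34 or P36 as well (limma adjusted p between 0.05918 and 0.07555). Hoxa4, Hoxa5 and Hoxa7 were lower in adenoma than in epithelium alone by -0.61 ± 0.29, -0.93 ± 0.43 and -0.66 ± 0.32, with limma adjusted p of 0.1271, 0.11 and 0.1262, and none of these was called.

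Outside HoxA the lower genes were Hoxd13 and Hoxc12. Hoxd13 was bright enough to test only through epithelium alone, which averaged 2.89 against 2.66 or less in the other groups. With no filter on dim genes its call held. Hoxd13 read 2.45, 2.19, 2.12 and 2.55 in adenoma against 2.67 and 3.11 in epithelium alone (-0.56 ± 0.16, limma adjusted p = 0.01465), and without P30 the difference of -0.34 was not called (limma adjusted p = 0.2091). Hoxc12 differed by -0.38 ± 0.14 (limma adjusted p = 0.04935) and by -0.42 ± 0.14 against co-culture (limma adjusted p = 0.03568). Its 2 calls were lost in 22 and in 11 of 29 alternatives. The count of 4 became 8 without P28 in monoculture and 1 without P30 in monoculture. The count of 5 became 3 without co-cultured P28, 2 without co-cultured P30, 3 without P23 or P36 and 2 without P34.

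No HoxB gene and 1 HoxC gene, Hoxc12, was called between adenoma and epithelium. In epithelium alone 1 of 10 HoxB and 2 of 9 HoxC genes passed the median probe set level, and 0 and 2 did in co-culture. For HoxA 5 and 6 of 9 did, so the clusters did not have equal room for a fall. The HoxB median difference against epithelium alone was -0.13 over 10 genes, and Hoxb9 read 2.48, 2.78, 2.51 and 3.24. Hoxc8 read 2.96, 3.02, 2.84 and 2.75. Set against myofibroblasts alone, 19 of 34 Hox genes were lower in adenoma (21.5% of all genes) and 0 were higher by limma (25.0% of all, with 0 Hox genes at an unadjusted p under 0.05). The median was -1.24, against 0.05 over all genes. These 19 comprised 8 of 10 HoxB, 5 of 8 HoxC, 5 of 9 HoxA and 1 of 7 HoxD genes, and each stayed called in all alternatives. The largest were Hoxc8 at -5.10 ± 0.35 (34.4-fold), Hoxb9 at -4.77 ± 0.28 (27.3-fold), Hoxc6 at -4.70 ± 0.23 (26.0-fold) and Hoxb6 at -3.69 ± 0.21 (12.9-fold), with limma adjusted p of 1.463e-07 or less. This comparison shares its myofibroblast samples with the first one and its adenoma samples with those above.

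**Figure D3:**
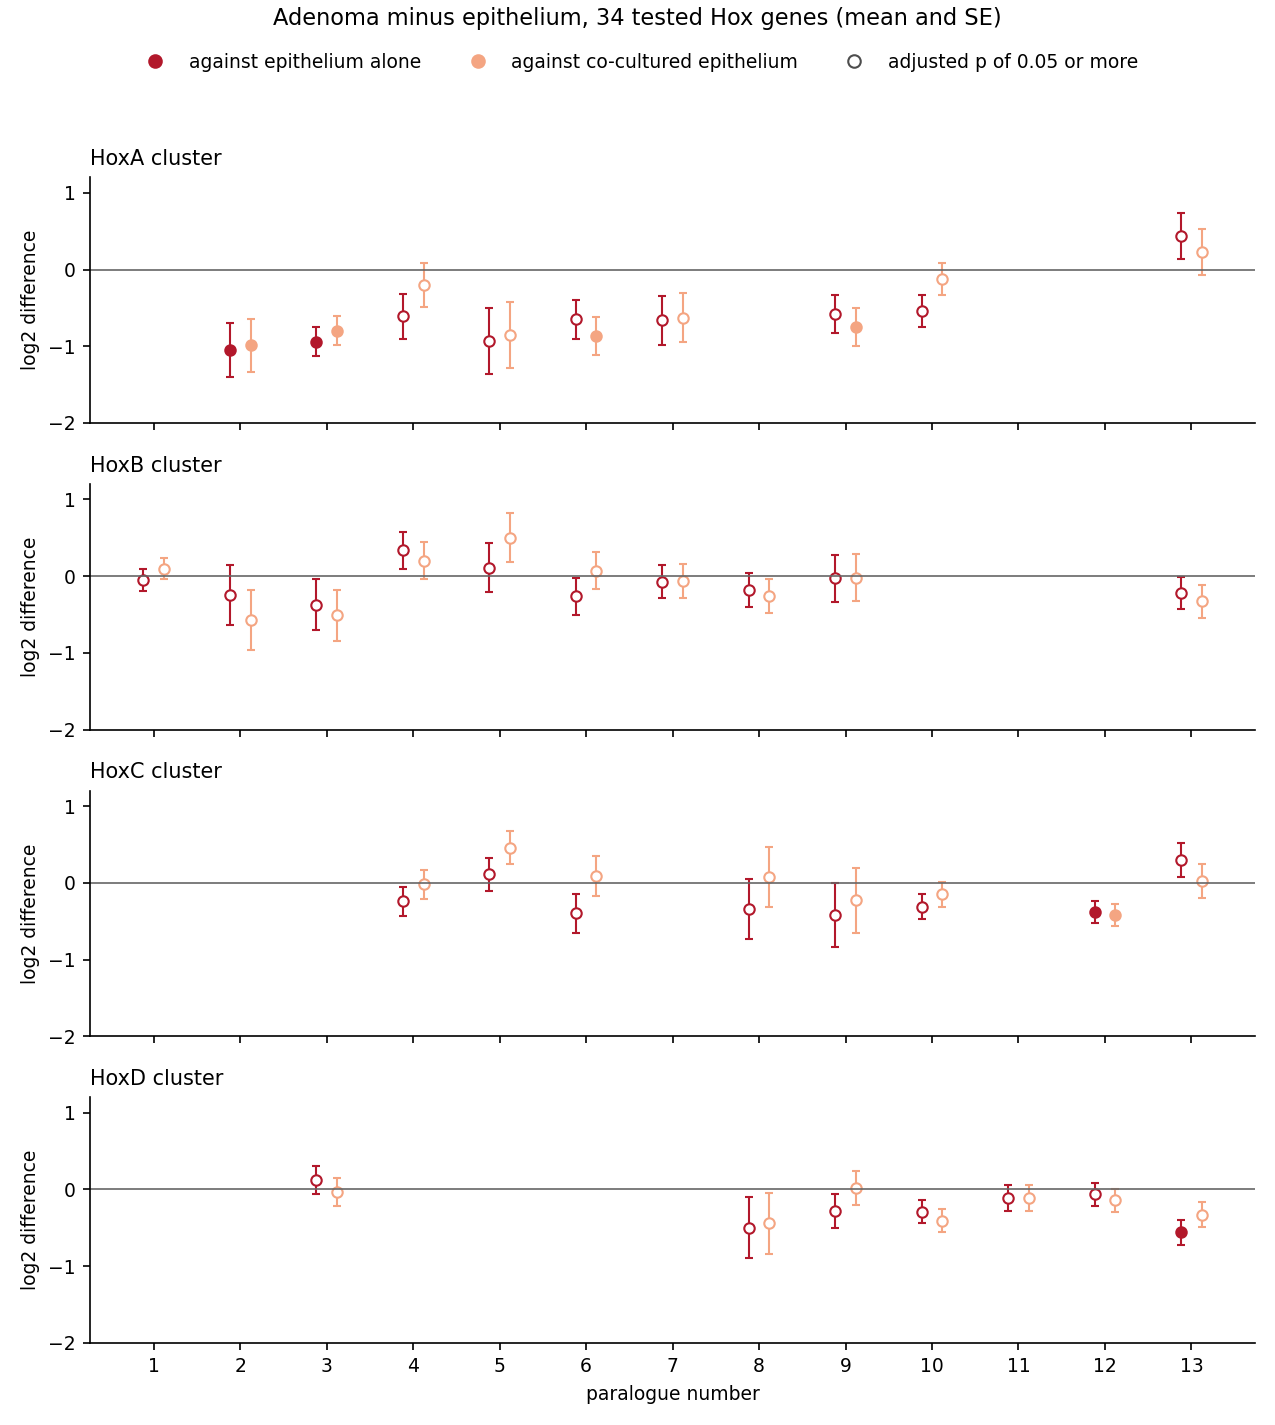
Difference in log2 level between adenoma cells and epithelium for the 34 tested Hox genes, by cluster and paralogue number, against epithelium alone (dark) and co-cultured epithelium (light); bars are SE and filled circles mark an adjusted p under 0.05. The filled circles lie below 0, from -0.38 at Hoxc12 to -1.05 at Hoxa2, and no HoxB gene is among them.

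Of 8 TALE cofactors 3 were higher than in epithelium alone (22.5% of all genes were) and none lower (18.5% of all). Pbx3 read 6.63, 6.30, 6.71 and 6.68 in adenoma against 3.86 and 4.07 in epithelium (2.61 ± 0.20), and myofibroblasts alone read 6.53 to 7.27. Meis2 differed by 2.72 ± 0.33 and Meis1 by 1.61 ± 0.20. Of the ParaHox and caudal genes Cdx1 differed by -4.59 ± 0.24, Cdx2 by -1.72 ± 0.44 and Pdx1 by 2.16 ± 0.61, the last against the same unequal epithelial samples. Cdx2 read 8.52 and 8.46 in P21 and P23 but 7.04 and 6.67 in P34 and P36.

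Of 18 Polycomb genes 12 were higher in adenoma than in epithelium alone and 2 lower, where 22.5% and 18.5% of all genes were. Ezh2, the histone methyltransferase of Polycomb repressive complex 2, differed by 1.66 ± 0.29, Phc1 by 1.37 ± 0.24, Scmh1 by 1.15 ± 0.20 and Phc3 by 0.84 ± 0.12. Of 11 trithorax and demethylase genes 5 were higher and 2 lower, and those with the smallest p were Wdr5 (1.39 ± 0.15) and Dpy30 (0.98 ± 0.16). Of 13 retinoic acid genes 2 were higher and 2 lower, with the receptor gene Rxra at -2.24 ± 0.17. None of 13 other mesenchymal homeobox and forkhead genes was higher, and 1, Prrx1, was lower. Of 12 fibroblast and myofibroblast markers 1 was higher in adenoma and 2 were lower.

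The co-culture comparisons asked how each cell type changes when the other shares its medium. In epithelium 0 Hox genes were higher and 0 lower by limma, where 2.71% and 1.32% of all genes were called, and 0 Hox genes reached an unadjusted p under 0.05 either way. The largest differences were Hoxc6 at -0.49 (limma adjusted p = 0.4677) and Hoxa10 at -0.43 (limma adjusted p = 0.4232). Hoxc6 went from 3.33 to 3.07 in P28 and from 3.65 to 2.93 in P30, both low levels.

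In myofibroblasts 0 Hox genes were higher and 0 lower by limma, where 0% and 0.00553% of all genes were called (1 gene), and 1 Hox gene reached an unadjusted p under 0.05. This was Hoxd9, the neighbour of Hoxd8. It read 2.81, 2.50 and 2.03 in Pl_I, Pl_II and Pl_III alone and 3.73, 4.12 and 3.36 in co-culture. It was higher in 3 of 3 animals, by 0.92, 1.62 and 1.33, and the lowest co-cultured sample lay above the highest one alone. The difference was 1.29 ± 0.21 with an unadjusted p of 5.774e-05 and a limma adjusted p of 0.5224. With the animal as a fixed replicate block the limma adjusted p was 0.3649. It was called with all 16 arrays and the animal as a random block (limma adjusted p = 0.003746). Over its alternatives the difference ran from 1.08 to 1.48.

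In epithelium Hoxd9 read 2.57 alone and 2.40 in co-culture in P28, and 2.75 and 2.33 in P30, all near the dim level. That difference of -0.30 ± 0.26 was not called (limma adjusted p = 0.6425). The difference between both responses, epithelium minus myofibroblasts, was called for Hoxd9 alone among the 34 genes, at -1.59 ± 0.33 (limma adjusted p = 0.04762). In that test 0.834% of all genes were called higher and 0.271% lower. Hoxd9 was bright enough to test only through co-cultured myofibroblasts, which averaged 3.74 against 2.66 or less in the other groups. With no filter on dim genes it was not called (limma adjusted p = 0.05219). The call was lost in 19 of 29 alternatives, with limma adjusted p between 0.0006222 and 0.1552. Leaving out 1 sample lost it without any 1 of the 4 epithelial samples, without any 1 of the 4 adenoma samples, without Pl_II or Pl_III alone, and without Pl_I or Pl_II in co-culture (limma adjusted p between 0.05874 and 0.1552). With the animal as a fixed replicate block it held (limma adjusted p = 0.02098).

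In co-culture Hoxd9 was also higher in myofibroblasts than in epithelium (1.37 ± 0.24, limma adjusted p = 0.0004273), while alone the difference was -0.22 ± 0.24. This comparison uses the group through which Hoxd9 was bright enough to test. The call in co-culture held in all 29 alternatives, also with no filter on dim genes. Its neighbour Hoxd8 changed by 0.31, 1.14 and -0.28 in Pl_I, Pl_II and Pl_III, with no common direction. Hoxb5, the next largest in myofibroblasts, differed by 0.40 (limma adjusted p = 1), with changes of -0.18, 0.68 and 0.69. Of the paralogues of Hoxd9, Hoxb9 and Hoxc9 were high or measurable in myofibroblasts with no called change in co-culture. Of the TALE, Polycomb and retinoic acid lists 0 genes were called by limma in either co-culture comparison.

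**Figure D4:**
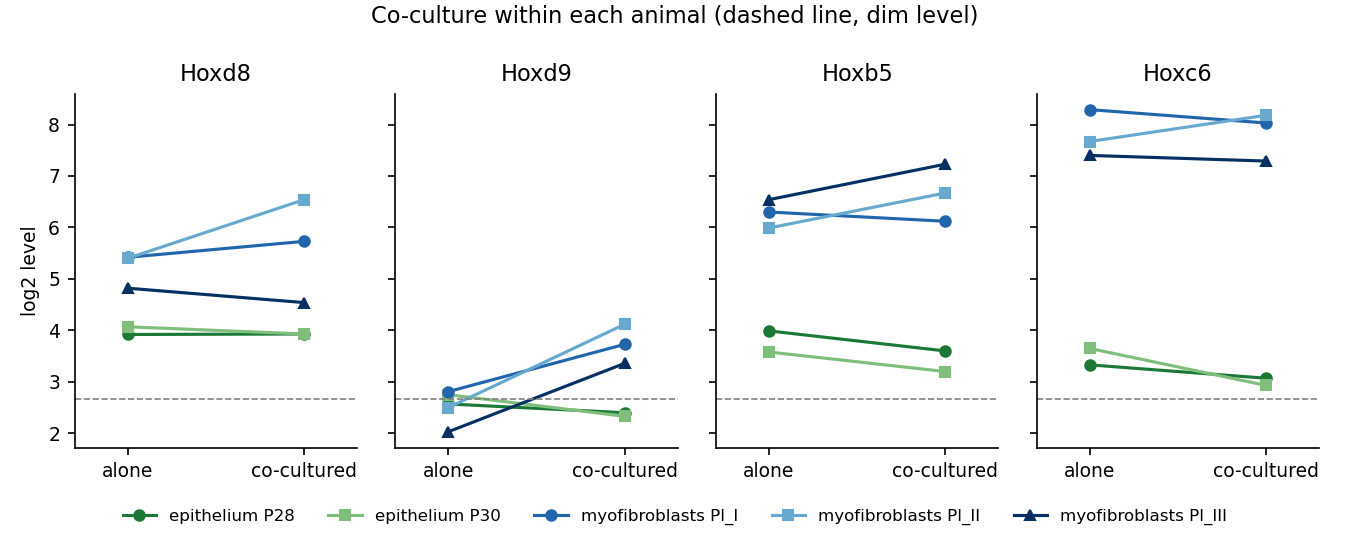
Log2 level of Hoxd8, Hoxd9, Hoxb5 and Hoxc6 in each animal alone and in co-culture, with lines joining the samples of an animal, green for epithelium and blue for myofibroblasts; the dashed line is the dim level of 2.67. Hoxd9 lies between 2.03 and 2.81 in myofibroblasts alone and between 3.36 and 4.12 in co-culture, and no other gene shown rises in all 3 myofibroblast animals.

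Among adenomas, the titles of P21 and P23 carry the token T2, whose meaning the labels do not explain, and those of P34 and P36 do not. In a fit that split the adenomas by this token, 1 Hox gene was higher in the T2 pair (3.65% of all genes were) and 0 were lower by limma (3.49% of all, with 0 Hox genes at an unadjusted p under 0.05). This was Hoxa13, a gene of the hindgut and of the limb's far end, at 3.67 and 4.02 in P21 and P23 against 2.87 and 3.03 in P34 and P36. The pairs did not overlap, and the difference was 0.89 ± 0.23 (limma adjusted p = 0.04118). The 2 technical arrays of P21, which were averaged, read 4.00 and 3.34, so the second lay closer to the other pair. The call was lost in 9 of 26 alternatives. These included leaving out P21 (adjusted p = 0.07747), P23 (0.3006), P34 (0.2015), P36 (0.1375), either co-cultured epithelial sample (0.06076), Pl_I alone (0.0532) or Pl_I in co-culture (0.05624).

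Levels differed between animals of one group as well. In epithelium Hoxa5, Hoxa6, Hoxa7 and Hoxa9 were higher in P30 than in P28 by more than 0.5 in both cultures. These are 4 of 34 Hox genes, where 1.71% of all genes showed this, and 0 Hox genes were lower by as much, where 1.89% of all were. Hoxa5, a gene of gut and lung patterning, read 3.93 and 3.81 in P28 alone and in co-culture, and 5.05 and 5.02 in P30. Hoxa7 read 4.58 and 4.59 in P28 and 5.70 and 5.65 in P30. For both genes the 2 cultures of an animal lay closer together than the 2 animals. With 1 animal on each side no test is possible. Pdx1, a gene of the front of the small intestine, was also higher in P30, at 6.02 and 6.01 against 3.94 and 3.48. Osr2, from the list of genes that vary along the small intestine, was higher in P28, at 10.26 and 10.01 against 6.47 and 5.82. Of the same list, Slc10a2 was also higher in P28 (5.21 and 7.27 against 4.20 and 6.12). Onecut2 was higher in P30 (8.85 and 8.87 against 7.73 and 8.25). Gata4, Hnf4a, Fabp6, Gcnt1 and Onecut3 differed by less than 0.5 in both cultures. Pdx1 and Osr2 were singled out after their values were seen. P28 is one of the animals whose sex markers go against the label, and the part of this in the difference was not tested.

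Among myofibroblast animals Pl_III differed from the other 2 in both directions. Averaged over both cultures it was lower at Hoxc8 (7.18 against 8.32 and 8.39), Hoxc9 (3.31 against 4.86 and 4.09), Hoxd8 (4.68 against 5.57 and 5.97) and Hoxc6 (7.35 against 8.16 and 7.92), as well as Hoxd9 (2.69 against 3.27 and 3.31). It was higher at Hoxa2 (5.63 against 4.84 and 4.64), Hoxb3 (6.28 against 5.43 and 5.54), Hoxb5 (6.88 against 6.21 and 6.33) and Hoxb2 (5.48 against 4.87 and 4.88), as well as Hoxa5 (5.76 against 5.63 and 4.79). These are the 10 tested genes in which Pl_III differed by more than 0.5 from the mean of the others. Of the 34, 5 were higher and 5 lower, where 7.94% and 9.45% of all tested genes were. Those lower had paralogue numbers of 6 or more and those higher of 5 or less. This split depends on the cut of 0.5 and on the genes tested. Under the cut Hoxc13 (0.48) and Hoxa10 (0.45) were higher and Hoxc4 (-0.29) lower, against the split. Hoxb4 (0.40) and Hoxc5 (0.40) went with it. The untested Hoxc11 was higher by 0.57. The counts and the split are a description of 1 animal against 2, chosen after the values were seen. Pl_III also stood apart at other genes: Pdgfra, a fibroblast receptor gene, read 7.70 and 7.63 against 11.06 to 11.44 in the others. The retinoic acid synthesis genes Aldh1a2 (3.08 and 3.36 against 5.37 to 6.80) and Aldh1a3 (8.59 and 8.32 against 5.50 to 6.02) differed in opposite directions. The part of these in the Hox levels was not tested. Pl_III is the other animal with sex markers against its label, and one label of its culture alone names Pl_II instead. Without P28 and Pl_III the called rises of Hoxb2 to Hoxb9, Hoxc4, Hoxc5, Hoxc6, Hoxc8 and Hoxd8 all held, but Hoxa6 alone (0.70, limma adjusted p = 0.1011) and Hoxa4 in co-culture (0.38, limma adjusted p = 0.3987) were not called.

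**Figure D5:**
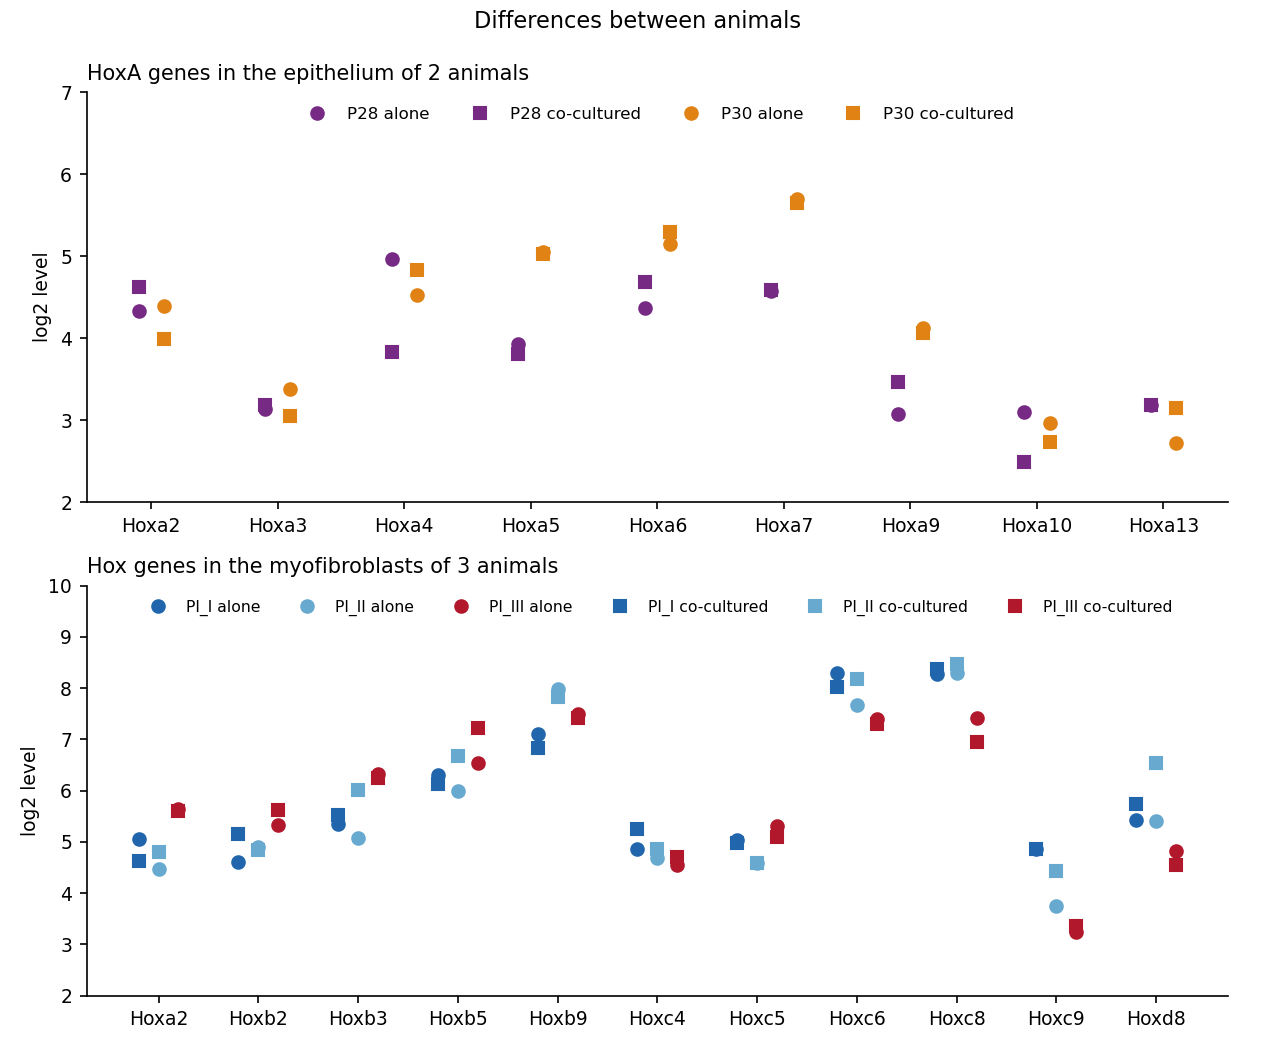
Top, log2 level of the HoxA genes in epithelium of animals P28 and P30; bottom, log2 level of 11 Hox genes in myofibroblasts of animals Pl_I, Pl_II and Pl_III; circles are cultures alone and squares co-cultures. Hoxa5, Hoxa6, Hoxa7 and Hoxa9 are higher in P30 in both cultures, and Pl_III is lowest at Hoxc6, Hoxc8, Hoxc9 and Hoxd8.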

How the data were processed

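Gene expression was read from 1 table of log2 probe set levels that the authors deposited, made with RMA (background correction, normalisation and probe summary) per the submitters' processing notes, which state no version. It holds 41345 probe sets on 16 arrays. The labels' protocols describe whole-transcript amplification from 150 ng of RNA. Neither the array library file nor the genome build was given in the sources used here. RMA makes arrays alike, which would hide a shift shared by most genes, and precision is limited by how few arrays there are.

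The 2 arrays each of adenoma animals P21 and P34 were averaged as technical repeats, which left 14 samples. Groups followed the titles, also for the third myofibroblast monoculture, whose source label names another animal. Names came from GEO's platform annotation, in which 23521 probe sets had 1 symbol, 1814 several and 16010 none. The brightest probe set with 1 symbol stood for a gene, and genes whose highest group mean passed the 30th percentile (2.67) were tested. limma 3.58.1 in R 4.3.3 fitted a mean per group with a shared spread and moderated variances (total degrees of freedom 11.7), with 2-sided tests and Benjamini-Hochberg adjustment over 18095 genes. Groups are small, and pooling assumes that they vary alike. The functions were tested on simulated data.

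The rule for named genes took every Hox gene by cluster and paralogue number, full statistics for at most the 4 largest called differences each way per comparison, called genes and the 2 largest differences of the co-culture comparisons, and at most 4 genes of each other list. The members and lists were chosen with earlier results of these data known. Per the labels each epithelial and myofibroblast animal gave both a culture alone and a co-culture. The deviations of the pair from group means correlated at 0.33 for both epithelial animals and at 0.62, 0.51 and 0.79 for the myofibroblast animals. With 2 animals per epithelial group their deviations mirror each other, so both values of 0.33 are the same value by construction. The animal as a replicate block was an alternative. The other alternatives were the filter, the choice of probe set, cyclic loess, a trended robust variance prior, the groups in the fit, a 2-fold minimum, an adjusted p under 0.1, the handling of repeats and leaving out samples.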

Additional observations from a re-analysis of the deposited data

Results flagged for a closer look

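Among the 4 adenoma samples Hoxb13 in P21 read 2.69, apart from the other 3 (2.97, 3.00 and 2.95). A gap of this relative size arises by chance in about 1 of 20 groups.

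For Hoxd9 the difference of the co-culture responses, epithelium minus myofibroblasts, was -1.59 (limma adjusted p = 0.04762). In 19 of 29 alternatives it missed the threshold, among them with no filter on dim genes. Hoxd9 was tested only through co-cultured myofibroblasts. Neither response was itself called (limma adjusted p = 0.6425 in epithelium and 0.5224 in myofibroblasts). For Hoxa10 the difference was -0.77, with a fall in 2 of 2 epithelial animals and a rise in 3 of 3 myofibroblast animals, and it did not pass (limma adjusted p = 0.3185). For Hoxc4 it was -0.45 with the same directions, and it did not pass either (limma adjusted p = 0.5704).

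Probe sets outside the comparisons carried signal too. The second Hoxb5 probe set averaged 4.56 over the 6 myofibroblast samples, against 3.71 in epithelium, a smaller gap than at the brightest Hoxb5 probe set. The probe set shared by Hoxb3 and Hoxb2 averaged 4.59, against 3.18 in epithelium.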

How the results depend on the processing

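Of 66 called gene results 44 kept their call in all alternatives run and 22 lost it in at least 1. None of the 66 changed sign. The counts of Hox genes higher in myofibroblasts, and of those lower in adenoma than in myofibroblasts, stayed within 1.5 times. The small counts moved. Genes lower in myofibroblasts alone (3) became 1 at the 50th percentile filter, with cyclic loess or with only the compared groups, 0 at a 2-fold minimum, 6 at an adjusted p under 0.1, and 0 to 4 without single samples. In co-culture (3) they became 1 with cyclic loess, with only the compared groups or without the T2 adenomas, 0 at 2-fold, 5 at 0.1 and 5 with the animal as a random replicate block, and 0 to 5 without single samples. Genes lower in adenoma than in epithelium alone (4) became 2 at the 50th percentile or without the T2 adenomas, 1 at 2-fold, 7 at 0.1, 8 without P28 and Pl_III, and 1 to 8 without single samples. Against co-cultured epithelium (5) they became 0 at 2-fold, 1 without the T2 adenomas and 3 without the others, and 2 to 6 without single samples. Without the other adenomas 1 gene was higher in adenoma than in epithelium alone and 1 than in myofibroblasts. The co-culture call in myofibroblasts (0) became 1 with all 16 arrays. The call on the difference of responses (1) became 0 with no filter, cyclic loess, only the compared groups, first arrays, without P28 and Pl_III or without either adenoma pair, and 0 to 1 without single samples. The T2 call (1) became 0 at the 50th percentile and at 2-fold, and 0 to 1 without single samples. At the 50th percentile filter Hoxa3, Hoxa10, Hoxa13 and Hoxd13 were no longer tested. The counts given for that filter fell through this removal and not through calls that were lost. With the animal as a replicate block Hoxc12 in adenoma against epithelium alone lost its call (adjusted p = 0.05756). With all 16 arrays and a random block Hoxa10 alone (0.07706) and Hoxd10 in co-culture (0.1434) lost theirs. Fewer degrees of freedom come with fewer samples; otherwise the cause was not tested. Signal over background limits the dim members. In epithelium alone 28 of 36 passed the 30th percentile and 10 the 50th, where 76.3% and 55.0% of all genes did. In adenoma 24 and 5 passed (73.9% and 54.0% of all genes), and in myofibroblasts alone 29 and 20 (74.1% and 55.8%).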

Other observations

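Probe sets annotated to 2 genes could not be assigned to a member. The one shared by Mira and Hoxa7 ran from 4.26 to 5.47 in the 6 myofibroblast samples, from 3.37 to 4.47 in epithelium and from 3.22 to 3.52 in adenoma. The one shared by Hoxd4 and Hoxd3 ran from 2.47 to 4.45 in myofibroblasts and from 2.63 to 3.14 in epithelium. Both probe sets shared by Hoxa11 and its antisense gene read at most 2.98 in every sample.

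Of 8 tested genes that vary along the length of the small intestine, 3 were higher and 2 lower in adenoma than in epithelium alone, where 22.5% and 18.5% of all genes were. Against co-cultured epithelium 3 were lower, where 14.3% of all genes were, and no higher one was called, with Onecut3 nearest to it (1.11 ± 0.41, limma adjusted p = 0.05801). Gcnt1 differed by 2.80 ± 0.34 in the first comparison and by 0.30 ± 0.34 in the second. Osr2 read 2.56 to 2.94 in adenoma, against 10.26 in P28 and 6.47 in P30 alone, so the size of its difference depends on the epithelial animal.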
